A study of Mus musculus with 60 samples.

Results

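The receptors described here, apart from Ackr2, which degrades chemokines, guide leukocytes between bone marrow, blood, spleen and inflamed tissue. They are 9 receptors of the chemokine family (Ackr2, Ccr2, Ccr6, Ccr7, Ccr9, Cxcr3, Cxcr4, Cxcr5 and Cx3cr1) and the sphingosine 1-phosphate receptor S1pr1. Every probe set that the array annotation assigns to one of these 10 genes was taken, which gave 20 probe sets of the 45037 measured (10 of 18193 named genes). Low probe sets were left out by requiring that 5 or more of the 30 mice reach a signal of 50, which 19 of the 20 and 38293 of all probe sets did. The 20th, Cx3cr1 probe set 1450019_at, reached 50 in 3 mice and was not tested. RNA came from spleen leukocytes that were neither sorted, cultured nor treated, taken from female mice of 3 inbred strains without any introduced allele. The groups were NOD, which spontaneously develops autoimmune diabetes, NON, a closely related strain that does not, and C57BL/6 (hereinafter C57), a more distant strain, each at 4 and at 2 weeks of age with 5 mice per group. Each mouse was measured on an Affymetrix 430A and a 430B array.

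Chemokines are small secreted proteins that bind G protein-coupled receptors on leukocytes and direct their migration. Ccr7, Cxcr5, Cxcr4 and S1pr1 set where lymphocytes sit within lymphoid organs and when they leave them, Ccr6 and Ccr9 direct lymphocytes to mucosal sites, and Cxcr3, Ccr2 and Cx3cr1 are used by effector lymphocytes and monocytes. Ackr2 (also known as D6) is an atypical receptor that binds inflammatory CC chemokines and degrades them without activating G proteins.

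The signals are linear intensities scaled to the same mean on every array. A level can be compared between mice within a probe set but not between probe sets: the 100 probe sets present on both arrays read a median of 3.79 times higher on 430B than on 430A. For genes with several probe sets the one with the highest mean log2 signal is called the lead, and it lies on 430B for Ackr2 and Ccr2 and on 430A for the other 8 genes. The rule does not correct for the higher scale of 430B, so it favours that array. For Ccr2 the lead averaged 644.4 on 430B and the next probe set, 1421186_at, 237.1 on 430A, a gap smaller than the factor of 3.79. The Gapdh 3'/5' ratio, a measure of RNA integrity that rises with degradation, ranged from 0.744 to 1.302 in NOD, from 0.746 to 3.997 in NON and from 0.804 to 2.404 in C57 mice. NON replicate 1 of 4 weeks and NON replicate 2 of 2 weeks had ratios over 3, and NOD replicate 3 of 4 weeks correlated with its own group at a median r of 0.739, against 0.847 to 0.859 for the other NOD mice of that age. In 28 of 30 mice the 430A array matched the 430B array of the same mouse best over the shared probe sets. The exceptions were C57 replicate 1 of 2 weeks (r = 0.634 with its own 430B array) and NON replicate 4 of 4 weeks (0.319, the lowest of all mice). Both stayed in the fits and are not among the mice set apart below. Whether their arrays were exchanged was not tested. Markers of B cells (7 genes, summed signal 12046 to 36862 per mouse) and of T cells (9 genes, 1380 to 10294) were measured in every mouse, as the label of spleen leukocytes implies. The sample is a mixture, so fewer cells of a type and less RNA per cell cannot be told apart.

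Promoter sequence is shown for Ackr2 and Cxcr3, since the 2-week strain difference of Ackr2 and the age difference of Cxcr3 kept their calls whichever single mouse was left out. RefSeq (GRCm38.p6) gave a start site for 7 of the 10 genes. It gave none for Cxcr5, S1pr1 or Ccr7, although the age difference of Ccr7 also kept its call in every omission. The stretches are the 250 bases before the start site on the gene's own strand, in the C57BL/6J reference, and capitals mark the ETS core GGAAG read on either strand (CTTCC on the other). Ackr2 lies on chromosome 9 (+ strand) and its stretch covers chr9:121898105-121898354. Cxcr3 lies on the X chromosome (- strand) and its stretch covers chrX:101734148-101734397.
Ackr2: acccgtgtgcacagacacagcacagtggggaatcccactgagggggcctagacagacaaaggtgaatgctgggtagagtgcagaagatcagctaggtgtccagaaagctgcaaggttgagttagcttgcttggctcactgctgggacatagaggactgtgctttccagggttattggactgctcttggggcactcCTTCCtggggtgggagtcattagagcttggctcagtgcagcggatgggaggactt
Cxcr3: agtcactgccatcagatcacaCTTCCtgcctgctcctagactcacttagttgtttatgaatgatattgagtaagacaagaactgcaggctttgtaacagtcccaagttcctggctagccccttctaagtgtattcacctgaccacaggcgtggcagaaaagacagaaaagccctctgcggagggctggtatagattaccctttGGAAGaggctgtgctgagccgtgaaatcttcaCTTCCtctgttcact
The Ackr2 stretch held 1 match to the ETS core and the Cxcr3 stretch 3, while 64.1% of 32851 promoter stretches of this length held at least 1 and the median stretch held 1. The T-box core AGGTGT, also searched on both strands, had 1 match in Ackr2, none overlapping the ETS core, and 0 in Cxcr3, and was present in 11.8% of all stretches. Among the other matched genes, Ccr2, Cxcr4 and Cx3cr1 held no ETS core, Ccr9 held 1, and Ccr6 held 2 at one start site and 1 at another. A match or its absence is a description of these letters only.

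Ackr2, the scavenging receptor, was higher in NOD than in both control strains at 2 weeks, and higher in NOD than in NON at both ages. At 4 weeks the signals of lead probe set 1437937_at were 1246, 1298, 328, 1381 and 1586 in the 5 NOD mice. They were 471, 318, 216, 230 and 244 in NON and 650, 622, 716, 685 and 655 in C57 mice of that age. All NOD mice but one lay above all 10 controls, and all NON mice lay below all C57 mice, as for 1.84% of all probe sets. At 2 weeks the signals were 1346, 1245, 969, 1092 and 1586 in NOD mice. They were 359, 251, 360, 416 and 250 in NON and 530, 726, 706, 426 and 481 in C57 mice. At this age the 3 strains did not overlap, in the order NOD, C57, NON. Every NOD mouse lay above every control in 0.253% of all probe sets at 2 weeks, and every NON mouse below every C57 mouse in 2.44%.

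The means of Ackr2 were 1168 ± 487 in NOD, 296 ± 105 in NON and 665 ± 36.2 in C57 mice at 4 weeks, and 1247 ± 238, 327 ± 73.9 and 574 ± 135 at 2 weeks in the same order of strains (SD, n = 5 each). At 2 weeks the moderated F-test of limma across the strains gave an adjusted p of 0.00049, and 1 of the 19 receptor probe sets passed against 1.66% of all probe sets. NOD minus the mean of both controls was 1.51 on the log2(signal + 10) scale (SE 0.19, 2.85-fold, limma adjusted p = 0.00069), again the single receptor probe set called against 0.499% of all. At 4 weeks the F-test gave an adjusted p of 0.038, with 3 receptor probe sets called against 1.51% of all. NOD minus controls was then 1.23 (SE 0.31, adjusted p = 0.091 by limma), which did not pass. Without NOD replicate 3, the mouse that correlated poorly with its group, this difference was 1.64 (limma adjusted p = 0.00066), and NON minus C57, at -1.20, also passed (adjusted p = 0.009). No other omission of 1 mouse gave either call. The 4-week F-test call held only without this mouse (adjusted p = 0.00016) or without NON replicate 1, and was lost in the other 13 omissions of 1 mouse (adjusted p up to 0.094). Without the 3 mice set apart above by RNA ratio or correlation, a choice made after seeing the data, NOD minus controls was 1.72 at 4 weeks (limma adjusted p = 5.9e-05) and 1.47 at 2 weeks (adjusted p = 0.0013).

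By pairs of strains, the NOD minus NON difference of Ackr2 was 1.83 at 4 weeks (SE 0.36, 3.56-fold, limma adjusted p = 0.033, 0.582% of all probe sets called) and 1.91 at 2 weeks (SE 0.22, 3.75-fold, adjusted p = 0.00028, 0.546% called). The 4-week call was lost when any one of 8 of the 15 mice was left out, NOD replicate 1, 2, 4 or 5 or NON replicate 2, 3, 4 or 5, with an adjusted p of up to 0.097, and the 2-week call held in all 15 omissions. NOD minus C57 was 0.63 at 4 weeks (95% interval -0.14 to 1.40, adjusted p = 0.49, 1.13% called) and 1.12 at 2 weeks (SE 0.22, 2.17-fold, adjusted p = 0.022, 0.841% called). That 2-week call was lost without NOD replicate 1, 2 or 5 or C57 replicate 1, 4 or 5 (adjusted p up to 0.071). The 4-week difference was called only without NOD replicate 3 (1.03, adjusted p = 0.035). NON minus C57 was -1.20 at 4 weeks (adjusted p = 0.20, 0.794% called) and -0.79 at 2 weeks (adjusted p = 0.094, 1.56% called). Age did not move the receptor detectably, with 4 weeks minus 2 weeks at -0.06 over the strains (95% interval -0.41 to 0.29).

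The other Ackr2 probe sets were dim. Probe set 1422111_at averaged 126 ± 26.3 in NOD, 47.5 ± 21.1 in NON and 94.4 ± 29.1 in C57 mice at 4 weeks, where the lowest NOD mouse (86.3) lay above the highest NON mouse (71.5), as for 1.34% of all probe sets. The corresponding means at 2 weeks were 106 ± 48.7, 50.2 ± 23.7 and 95.9 ± 17.4 for NOD, NON and C57. Its NOD minus NON difference was 1.31 at 4 weeks (adjusted p = 0.064) and 0.93 at 2 weeks (adjusted p = 0.25). NOD replicate 3 of 4 weeks, low at 328 on the lead, read 137 here, the second highest of its group. Probe set 1422112_at stayed between 2.4 and 99.0 over all 30 mice and passed no comparison, with NOD minus controls at 1.28 at 4 weeks (adjusted p = 0.19) and 0.95 at 2 weeks (adjusted p = 0.37). It met the filter only through NOD, where 3 mice of 4 weeks and 2 of 2 weeks reached 50, against 0 in every control group. The sign of its differences is therefore no further reading of Ackr2.

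**Figure D1:**
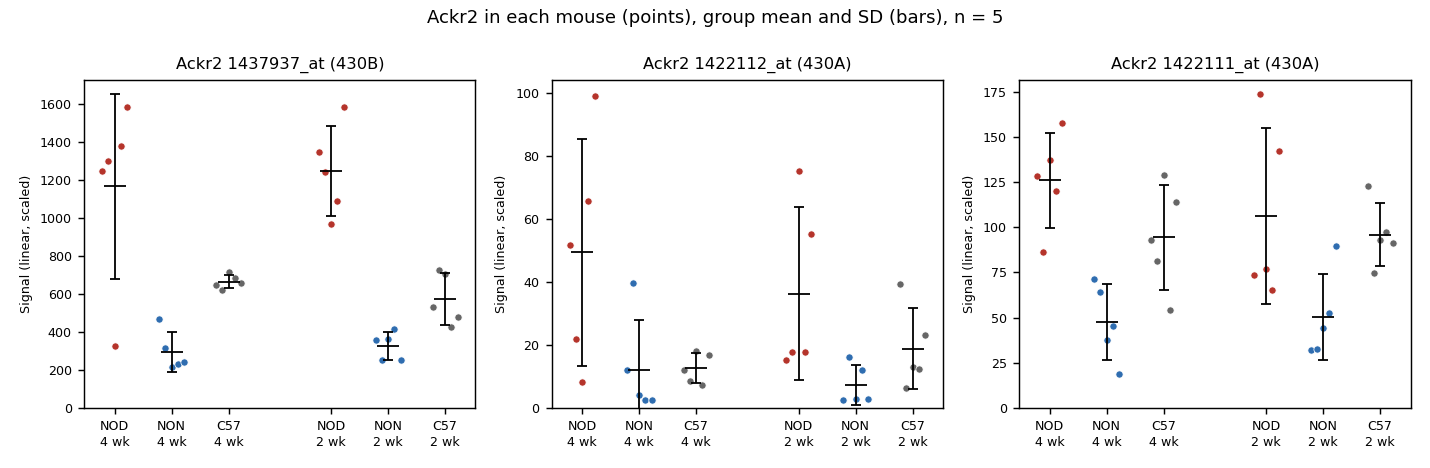
Signals (linear, scaled) of the 3 Ackr2 probe sets in each mouse, by strain and age, with group mean and SD (n = 5). On lead probe set 1437937_at the NOD mice lie between 969 and 1586 at 2 weeks, above all controls, and 1 NOD mouse of 4 weeks lies at 328.

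Ccr2, the receptor for monocyte chemoattractant proteins on inflammatory monocytes, gave different answers on its 4 probe sets. The NOD means of 1460067_at and 1421186_at lay below those of both controls at both ages, that of 1421188_at lay above them, and 1421187_at passed no comparison. No single direction can be given for the gene, and the probe sequences were not analysed here.

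On lead probe set 1460067_at the signals at 4 weeks were 283, 327, 176, 694 and 809 in NOD mice. They were 1442, 948, 1052, 933 and 635 in NON and 685, 827, 486, 716 and 786 in C57 mice. At 2 weeks they were 664, 339, 96.3, 161 and 189 in NOD, 869, 916, 769, 662 and 556 in NON and 384, 735, 818, 631 and 745 in C57 mice. At both ages 3 or more NOD mice lay below all 10 controls, and the rest overlapped them. NOD minus controls was -1.04 at 4 weeks (SE 0.31, limma adjusted p = 0.17) and -1.53 at 2 weeks (SE 0.34, adjusted p = 0.071). Neither passed, and at 2 weeks the difference was -1.89 without NOD replicate 1 (adjusted p = 0.0049), the NOD mouse with the highest signal. No other omission of 1 mouse gave a call.

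On 1421186_at the signals at 4 weeks were 142, 109, 111, 174 and 131 in NOD mice. They were 245, 234, 372, 374 and 279 in NON and 193, 174, 149, 217 and 202 in C57 mice. All NOD mice lay below all NON mice, as for 1.28% of all probe sets, and all NON mice lay above all C57 mice, as for 1.52%. At 2 weeks they were 247, 147, 120, 182 and 83.2 in NOD, 369, 554, 274, 274 and 300 in NON and 248, 363, 273, 324 and 248 in C57 mice. At that age every NOD mouse lay below every control, the closest pair being 247 in NOD against 248 in C57, a pattern found in 0.274% of all probe sets. NOD minus controls was -0.79 at 4 weeks (SE 0.17, 0.579-fold, limma adjusted p = 0.046), the single receptor probe set called against 0.804% of all. The call was lost in 14 of 15 omissions of 1 mouse (highest adjusted p 0.11) and held only without NON replicate 1, with the difference between -0.88 and -0.73 throughout. Without the 3 mice set apart by RNA ratio or correlation it was -0.76 (adjusted p = 0.092). At 2 weeks it was -1.05 (SE 0.24, adjusted p = 0.072). It was called there only without NOD replicate 1, the NOD mouse with the highest signal (-1.22, adjusted p = 0.031). The F-test at 4 weeks gave an adjusted p of 0.022, and NOD minus NON was -1.11 (SE 0.20, 0.464-fold, adjusted p = 0.017). The F-test call was lost without NOD replicate 5, NON replicate 3 or NON replicate 4 (adjusted p up to 0.061), and the NOD minus NON call without NON replicate 3 (adjusted p = 0.052).

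On 1421188_at the signals at 4 weeks were 216, 256, 179, 279 and 288 in NOD mice. They were 145, 97.7, 188, 195 and 129 in NON and 149, 85.5, 76.8, 101 and 41.1 in C57 mice. All NOD mice lay above all C57 mice, as for 1.75% of all probe sets, and NOD overlapped NON, of which 2 mice exceeded the lowest NOD mouse. NOD minus C57 was 1.41 (SE 0.28, 2.65-fold, limma adjusted p = 0.024), opposite in sign to the difference of -0.47 on 1421186_at (adjusted p = 0.33). Omitting NOD replicate 1, 4 or 5 or C57 replicate 2, 3 or 5 ended this call (adjusted p up to 0.071). The F-test at 4 weeks (adjusted p = 0.045) was lost in 12 of 15 omissions, all but those of NOD replicate 3, NON replicate 2 and C57 replicate 1 (adjusted p up to 0.11), and also without the 3 mice set apart (adjusted p = 0.061). NOD minus controls was 1.04 at 4 weeks (SE 0.24, adjusted p = 0.063). It was called only without C57 replicate 1, the C57 mouse with the highest signal (1.13, adjusted p = 0.033). At 2 weeks NOD minus controls was 0.25 (95% interval -0.22 to 0.73). Probe set 1421187_at spread widely within groups, from 86.1 to 620 in NON mice of 4 weeks alone, and its NOD minus controls differences were 0.03 at 4 weeks (95% interval -0.82 to 0.88) and 0.73 at 2 weeks (adjusted p = 0.49).

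**Figure D2:**
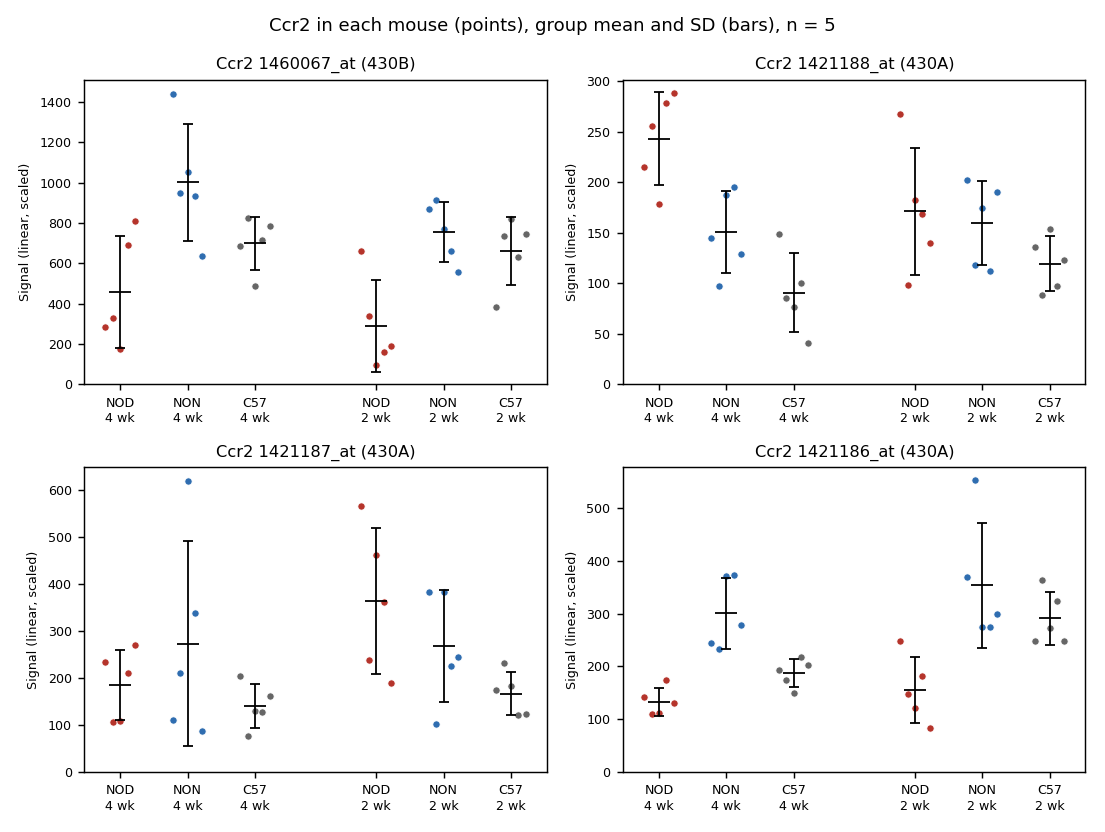
Signals (linear, scaled) of the 4 Ccr2 probe sets in each mouse, by strain and age, with group mean and SD (n = 5). NOD mice of 4 weeks average 133 on 1421186_at, below NON (301) and C57 (187), and 243 on 1421188_at, above NON (151) and C57 (90.6).

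Cx3cr1, the fractalkine receptor of patrolling monocytes and some NK cells, passed no comparison. On its tested probe set 1450020_at the signals at 4 weeks were 99.8, 145, 209, 475 and 376 in NOD, 234, 170, 181, 225 and 236 in NON and 124, 103, 53.9, 88.5 and 216 in C57 mice. At 2 weeks the ranges were 76.7 to 279 in NOD, 114 to 184 in NON and 56.5 to 151 in C57. The strains overlapped at both ages, and the 4-week NOD minus C57 difference of 1.01 had an adjusted p of 0.28 (95% interval 0.17 to 1.84).

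Age moved 3 lymphocyte receptors in one direction. Cxcr3, the receptor of effector T cells and NK cells for interferon-induced chemokines, Ccr7, which brings naive T cells and dendritic cells to T cell zones, and Cxcr5, which brings B cells to follicles, were each higher at 4 than at 2 weeks over the 3 strains. These were 3 of the 19 receptor probe sets, with none lower, against 3.19% of all probe sets called with age, 1.31% higher and 1.88% lower.

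Cxcr3 had signals at 4 weeks of 378, 436, 315, 534 and 566 in NOD, 376, 290, 269, 297 and 352 in NON and 491, 447, 340, 349 and 503 in C57 mice. At 2 weeks they were 198, 285, 216, 273 and 281 in NOD, 272, 147, 180, 226 and 132 in NON and 246, 289, 433, 344 and 260 in C57 mice. In NOD the ages did not overlap, a pattern seen for 0.763% of all probe sets in that strain, in NON they overlapped at 1 mouse of each age, and in C57 they overlapped. Over 15 mice per age the mean was 396 ± 94.3 at 4 weeks and 252 ± 76.2 at 2 weeks. The difference was 0.65 (SE 0.12, 1.57-fold, limma adjusted p = 0.0011) and kept its call in all 30 omissions of 1 mouse. Within strains it was 0.79 in NOD (adjusted p = 0.15), 0.73 in NON (adjusted p = 0.07) and 0.44 in C57 (adjusted p = 0.72). Among omissions of 1 NON mouse, only that of replicate 1 of 2 weeks, the highest NON mouse of that age, gave a call in NON (0.87, adjusted p = 0.04).

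Ccr7 had signals at 4 weeks of 375, 555, 737, 456 and 436 in NOD, 599, 756, 624, 459 and 768 in NON and 750, 974, 1290, 850 and 1104 in C57 mice. At 2 weeks they were 424, 379, 264, 388 and 412 in NOD, 192, 354, 437, 342 and 89.4 in NON and 423, 481, 839, 795 and 477 in C57 mice. In NON every mouse of 4 weeks lay above every mouse of 2 weeks, a pattern seen for 1.67% of all probe sets, and in NOD and C57 the ages overlapped. Over the strains the means were 716 ± 260 at 4 weeks and 420 ± 193 at 2 weeks (n = 15 each), with a difference of 0.83 (SE 0.17, 1.77-fold, limma adjusted p = 0.0047) that kept its call in all 30 omissions. In NON the difference was 1.31 (SE 0.30, 2.48-fold, adjusted p = 0.023), the single receptor probe set called there against 1.46% of all. This call was lost without NON replicate 1 or 5 of 2 weeks or NON replicate 2 or 5 of 4 weeks, with adjusted p up to 0.094 and a difference of 0.97 without replicate 5 of 2 weeks. The differences in NOD (0.42) and C57 (0.74) did not pass, and the test that the age difference is equal in the strains gave an adjusted p of 0.79. Between strains at 4 weeks, all NOD mice lay below all C57 mice, as 2.15% of all probe sets did, and NOD minus C57 was -0.96 (SE 0.23, adjusted p = 0.057). Of the omissions of 1 mouse, only that of NOD replicate 3, the NOD mouse with the highest signal, gave a call (-1.10, adjusted p = 0.024).

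Cxcr5 had signals at 4 weeks of 697, 1195, 972, 917 and 871 in NOD, 837, 673, 722, 896 and 747 in NON and 1267, 1086, 1722, 1256 and 1503 in C57 mice. At 2 weeks they were 632, 652, 476, 946 and 1307 in NOD, 628, 561, 447, 718 and 295 in NON and 690, 981, 1076, 738 and 783 in C57 mice. The ages were apart in C57 alone, as for 0.88% of all probe sets. The means were 1024 ± 310 at 4 weeks and 729 ± 261 at 2 weeks (n = 15 each), and the difference over strains was 0.52 (SE 0.14, 1.43-fold, limma adjusted p = 0.033). It lost its call in 13 of 30 omissions of 1 mouse, with adjusted p up to 0.063 and the difference between 0.45 and 0.58. These were NOD replicates 1, 2 and 3, NON replicates 3 and 5 and C57 replicates 1, 4 and 5 of 2 weeks, and NOD replicate 2, NON replicates 1 and 4 and C57 replicates 3 and 5 of 4 weeks. Without the 3 mice set apart by RNA ratio or correlation the difference was 0.51 (adjusted p = 0.07). At 4 weeks every NON mouse lay below every C57 mouse, as for 1.84% of all probe sets, and NON minus C57 was -0.80 (SE 0.19, adjusted p = 0.072).

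No receptor probe set was called for age in NOD (0.146% of all probe sets called) or in C57 (0.46% called). The test of unequal age differences among strains called 0 receptor probe sets and 1 of all 38293 (0.00261%) by limma, with 2642 of all (6.9%) at an unadjusted p under 0.05.

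Ccr6, which brings B cells and Th17 cells to sites that make Ccl20, passed no comparison. At 4 weeks its signals were 417, 666, 830, 837 and 825 in NOD, 285, 858, 312, 563 and 733 in NON and 392, 422, 317, 159 and 874 in C57 mice, and at 2 weeks they were 300, 727, 398, 697 and 521 in NOD, 173, 230, 307, 459 and 293 in NON and 206, 355, 384, 242 and 281 in C57 mice. Groups overlapped at both ages. The age difference over strains was 0.56 (95% interval 0.13 to 0.99, adjusted p = 0.18) and NOD minus controls was 0.66 at 4 weeks (adjusted p = 0.46) and 0.81 at 2 weeks (adjusted p = 0.28).

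Ccr9, the receptor for Ccl25 in thymus and small intestine, had 5 probe sets and none passed. Its lead 1427419_x_at carries the suffix of probe sets that can also bind other sequences. It averaged 269 ± 90.0 in NOD, 207 ± 86.8 in NON and 235 ± 118 in C57 mice at 4 weeks, and 182 ± 70.3 in NOD, 92.9 ± 33.4 in NON and 190 ± 89.6 in C57 mice at 2 weeks. The NON mice of 4 weeks (143 to 355) lay above those of 2 weeks (56.8 to 138), as for 1.67% of all probe sets, and the age difference over strains was 0.63 (SE 0.20, adjusted p = 0.087). Of the omissions of 1 mouse, only that of C57 replicate 3 of 2 weeks gave a call (0.70, adjusted p = 0.041). Probe set 1421919_a_at read 67.3, 63.8, 87.7, 67.7 and 102 in NOD mice of 2 weeks, above all controls of that age (22.9 to 59.8) as for 0.253% of all probe sets, with NOD minus controls at 0.81 (SE 0.21, adjusted p = 0.14). At 4 weeks it overlapped between the strains, at 0.19 (95% interval -0.48 to 0.86). Probe set 1421920_a_at differed by 0.65 with age over strains (adjusted p = 0.13), and the 430B probe sets 1436065_at and 1442758_at ranged from 8.0 to 212 and from 6.5 to 207 without a call.

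Cxcr4, the receptor for Cxcl12 that retains cells in bone marrow, had signals at 4 weeks of 1404, 1183, 3032, 967 and 939 in NOD, 2239, 2212, 1441, 1855 and 2953 in NON and 1630, 1499, 1358, 684 and 1029 in C57 mice. At 2 weeks they were 2131, 925, 1516, 939 and 1669 in NOD, 1735, 1736, 1688, 1682 and 868 in NON and 925, 1214, 1243, 1383 and 1275 in C57 mice. The strains overlapped at both ages and no comparison passed, with NOD minus controls at -0.21 (95% interval -0.82 to 0.40) at 4 weeks and 0.03 (-0.47 to 0.52) at 2 weeks. The highest value, 3032, was from NOD replicate 3 of 4 weeks.

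S1pr1, which lets lymphocytes leave lymphoid organs towards the lipid in blood and lymph, had signals at 4 weeks of 502, 566, 698, 708 and 664 in NOD, 449, 648, 620, 629 and 596 in NON and 721, 741, 939, 828 and 1049 in C57 mice. Every NOD mouse of that age lay below every C57 mouse, as for 2.15% of all probe sets, and so did every NON mouse, as for 1.84%. At 2 weeks the signals were 460, 612, 681, 567 and 989 in NOD, 415, 291, 492, 548 and 346 in NON and 720, 498, 989, 1034 and 660 in C57 mice, and the strains overlapped. NOD minus C57 was -0.44 at 4 weeks (95% interval -0.82 to -0.06, adjusted p = 0.31) and NON minus C57 was -0.53 (adjusted p = 0.28), so neither passed. With age the difference over strains was 0.21 (95% interval -0.04 to 0.47, adjusted p = 0.50).

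**Figure D3:**
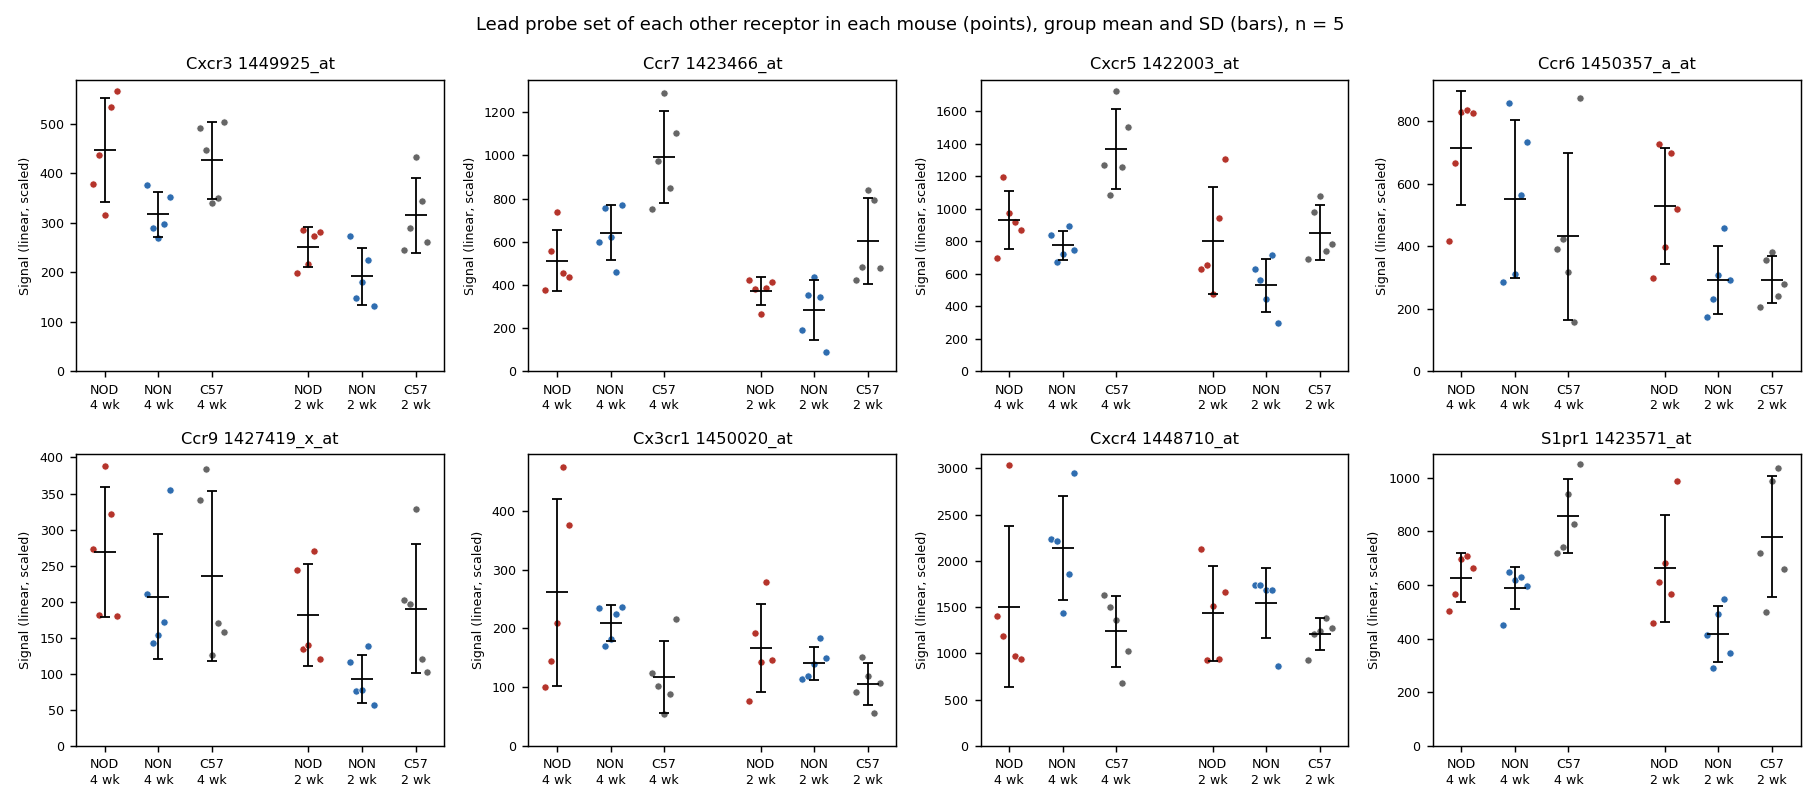
Signals (linear, scaled) of the lead probe sets of 8 receptors in each mouse, by strain and age, with group mean and SD (n = 5). Cxcr3, Ccr7 and Cxcr5 are higher at 4 than at 2 weeks in the mean of every strain, and C57 mice of 4 weeks have the highest Ccr7, Cxcr5 and S1pr1 means (994, 1367 and 856).

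Over the 10 lead probe sets, the age difference had a median of 0.46 and was above 0 for 9 genes, against a median of 0.01 over all 38293 probe sets. NOD minus controls had a median of 0.05 at 4 weeks (5 genes above 0) and 0.20 at 2 weeks (8 above 0), against 0.05 and 0.06 over all probe sets. NON minus C57 had a median of -0.27 at 4 weeks and -0.71 at 2 weeks, when 7 of the 10 genes were below 0, against -0.01 and 0.03 over all probe sets. Lead probe sets have the highest mean log2 signal of each gene, whereas the set of all probe sets also holds dim ones. Over all 19 tested receptor probe sets the median age difference was 0.21. NOD minus controls was then 0.26 at 4 weeks and 0.3 at 2 weeks, and NON minus C57 was -0.14 and -0.48. At 2 weeks no receptor passed in NON minus C57. The 5 largest drops there were Ccr7 (-1.19), Ccr9 (-0.91), S1pr1 (-0.87), Ackr2 (-0.79) and Cxcr5 (-0.72), with adjusted p between 0.094 and 0.27.

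**Figure D4:**
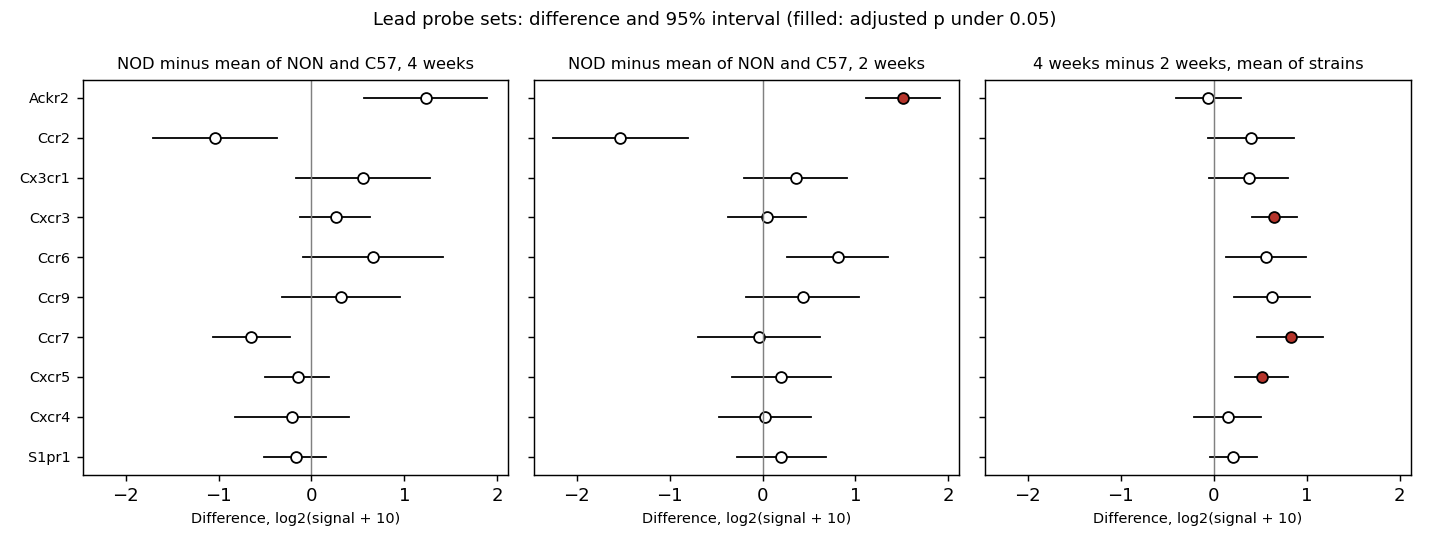
Difference in log2(signal + 10) with its 95% interval for the lead probe set of each receptor, in NOD minus the mean of NON and C57 at 4 and at 2 weeks and in 4 minus 2 weeks over the strains. Filled points passed an adjusted p under 0.05, which are Ackr2 at 2 weeks (1.51) and Cxcr3, Ccr7 and Cxcr5 with age (0.65, 0.83 and 0.52).

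The cell type markers moved with age as well. Of 9 T cell markers 8 were higher at 4 weeks (median 0.86), with the summed signal at 6427 to 8104 in NOD, 4288 to 5362 in NON and 7342 to 10294 in C57 mice of 4 weeks and at 3490 to 6616 in NOD, 1380 to 2849 in NON and 4346 to 8602 in C57 mice of 2 weeks. Of 5 NK cell markers 4 were higher (median 0.57), and of 7 B cell markers 2 were (median 0.11), Cr2, the complement receptor of mature B cells (1.04), and Cd22 (0.47). The neutrophil markers had 3 of 6 lower (median -0.77) and the lymphocyte precursor markers 5 of 5 lower (median -2.54). Of 6 dendritic cell markers 2 were higher (median 0.43). In NON minus C57 all 9 T cell markers were below 0 at both ages, with 4 called at 4 weeks and 3 at 2 weeks, among them Cd3d (-1.01 and -1.66). The part of these cells in the age and strain differences of Ccr7, Cxcr3 and Cxcr5 was not tested. The 7 monocyte and macrophage markers had 0 called in NOD against controls at either age, with medians of 0.21 at 4 weeks and 0.20 at 2 weeks, and their summed signal was 12085 to 19324 in NOD, 12262 to 23984 in NON and 9702 to 12897 in C57 mice of 4 weeks, and 13656 to 20569 in NOD, 13516 to 17499 in NON and 11741 to 13864 in C57 mice of 2 weeks.

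Other receptors of the same families were followed by their lead probe sets. Of 18 measured, 5 were higher with age and none lower. They were S1pr5, the exit receptor of NK cells (1.43, SE 0.29, limma adjusted p = 0.0035), Ccrl2, a receptor that presents chemerin (0.76), Gpr183, an oxysterol receptor that positions B cells and dendritic cells (0.75), Cxcr6, a receptor of tissue T cells and NKT cells (0.69), and S1pr3 (0.58, SE 0.15, adjusted p = 0.031), the last named after its value was seen. S1pr5 was dim. Its mean was 79.9 ± 45.1 for NOD, 94.2 ± 42.2 for NON and 37.4 ± 19.8 for C57 mice of 4 weeks, and 13.2 ± 12.8, 27.0 ± 21.4 and 14.7 ± 11.7 in NOD, NON and C57 mice of 2 weeks. At 2 weeks its highest signals were 34.7 in NOD, 61.5 in NON and 28.3 in C57 mice. All NON mice of 4 weeks, at 54.4 or more, reached 50, which was enough to meet the filter. S1pr5 was thus kept through its 4-week signals, the age called higher. Its age difference is therefore a weak reading, in call and in size. By lead probe set none of the 18 was called in NOD against controls at either age. A second, 430A probe set of S1pr3, 1460661_at, was higher in NOD at 2 weeks (1.59, SE 0.31, limma adjusted p = 0.03), while the lead 1438658_a_at was at 0.97 (adjusted p = 0.12). Ccr3, the eotaxin receptor of eosinophils, averaged 89.0 ± 16.3 in NOD and 75.0 ± 39.0 in NON mice of 2 weeks, against 16.8 ± 8.84 in C57 mice, and NOD minus C57 was 1.94 (SE 0.33, limma adjusted p = 0.0078). At 4 weeks Ccr3 averaged 111 ± 45 in NOD, 61.3 ± 43.3 in NON and 88.4 ± 19.1 in C57 mice. NOD minus C57 was then 0.24 and was not called, and in C57 Ccr3 was higher at 4 than at 2 weeks (1.93, limma adjusted p = 0.019).

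Of 23 ligands and enzymes of sphingosine 1-phosphate metabolism, 2 were higher with age and none lower. Ccl5, made by effector T cells and NK cells, averaged 1512 ± 433 in NOD, 2504 ± 570 in NON and 1806 ± 425 in C57 mice of 4 weeks, against 636 ± 112, 589 ± 355 and 923 ± 308 in NOD, NON and C57 mice of 2 weeks (1.47, SE 0.18, limma adjusted p = 8.3e-06). Cxcl9, an interferon-induced ligand of Cxcr3, was also higher (1.01, SE 0.21, adjusted p = 0.0046). Cxcl12, the ligand of Cxcr4, was higher in NOD than in the controls at 4 weeks (1.74, SE 0.38, limma adjusted p = 0.047), with 187 to 760 in NOD, 83.6 to 138 in NON and 25.1 to 148 in C57 mice. It was the 1 ligand of the 23 called there. Against each control strain alone no ligand was called at that age, with Cxcl12 at 1.66 in NOD minus NON and 1.82 in NOD minus C57. Its other tested probe sets, 1417574_at and 1439084_at, are not described here. Of 6 stromal and endothelial markers 1, the collagen gene Col3a1, was also higher in NOD at 4 weeks (1.82, adjusted p = 0.0036). Of the 6, 4 were above 0 and 2 below (median 0.39), down to -0.82 for Pecam1. The summed signal of those 6 was 504 to 1000 in NOD, 567 to 866 in NON and 627 to 965 in C57 mice. The part of stromal cells in the Cxcl12 difference was not tested. Of 21 signalling genes Grk3, a kinase that desensitises receptors, was higher with age (0.57, adjusted p = 0.042), and of 11 adhesion and homing genes the integrin chain Itgb2 was (0.40, adjusted p = 0.0039). Neither of these lists had a lead probe set called in NOD against controls at either age. Probe sets other than the lead were called at 2 weeks for Dock2 (1438334_at, -1.27, adjusted p = 0.017) and Gnb1 (1425908_at, 1.10, adjusted p = 0.015), with the leads of these genes at -0.34 and 0.20 at that age.

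**Figure D5:**
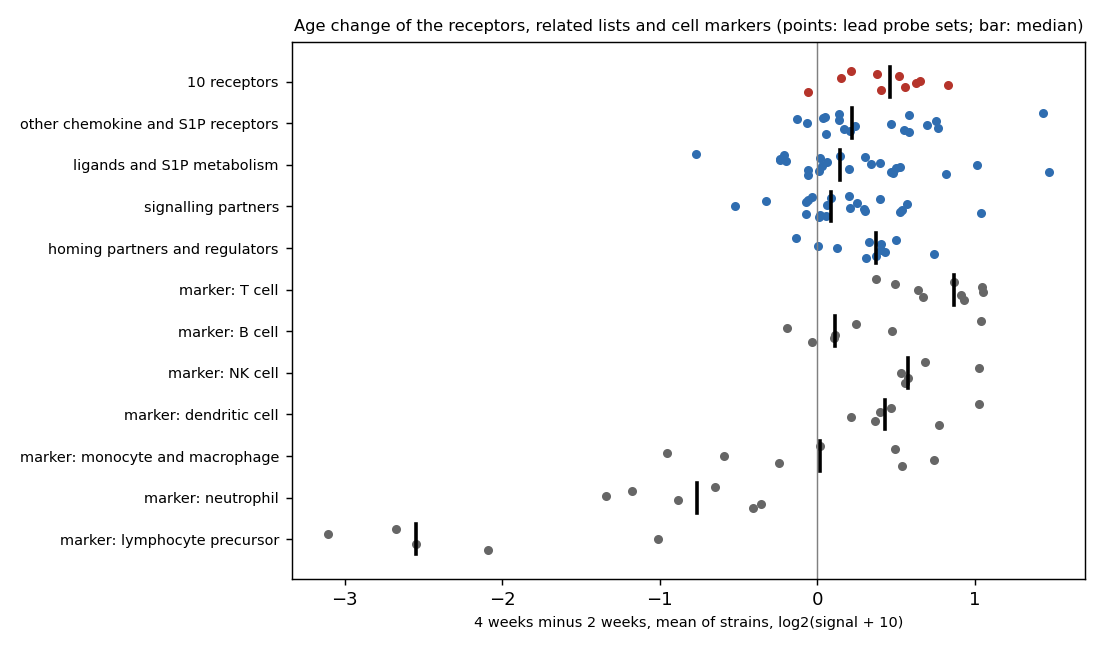
Age difference (4 minus 2 weeks over the strains, log2(signal + 10)) of the lead probe set of each gene in the 10 receptors, 4 related lists and 7 cell marker lists, with the median as a bar. The receptors have a median of 0.46, T cell markers 0.86 and lymphocyte precursor markers -2.54.

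In RefSeq (GRCm38) the genes of Ackr2 (9:121898355-121911075), Ccr2 (9:124101918-124109140), Ccr9 (9:123767211-123783457) and Cx3cr1 (9:120048683-120068296) lie together on chromosome 9 between 120048683 and 124109140. The same interval holds 88 tested probe sets of 53 other named genes. None of these was called in NOD against controls at 4 or at 2 weeks, when 0.804% and 0.499% of all probe sets were. At such low shares 0 calls among 88 probe sets do not set the interval apart. By the F-test across the strains 0 were called at 4 weeks (1.51% of all) and 2 (2.27%) at 2 weeks (1.66% of all), Ccr3 and Rpl14.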

How the data were processed

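Spleen leukocyte RNA of 30 female mice (5 per strain and age) was hybridised to 60 Affymetrix arrays, 430A and 430B for each mouse. The deposited values are linear intensities (signals) that the authors made with MAS5 and scaled globally per array. A scaling target of 100 is stated in the methods, whereas each array as deposited has a 2% trimmed mean of 250.0. The study's flag filter was not used here. Median signals were 84.8 to 125.6 on 430A and 125.8 to 169.3 on 430B. Probe names came from the platform annotation, in which 34945 probe sets have 1 gene symbol, 932 several and 9160 none. Promoters came from RefSeq.

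After 64 control probe sets per array were left out, both arrays of a mouse were joined. Values were tested as log2(signal + 10) with limma 3.58.1 (R 4.3.3), with Benjamini-Hochberg adjustment over 38293 probe sets and a call at an adjusted p under 0.05. Strains were compared in the 15 mice of an age, and ages in all 30 mice. A fold change on this scale understates that of dim probe sets. Every receptor was named, and of the related lists up to 4 called genes per comparison by size. The fits were tested on simulated data. Each choice of pseudocount, filter, scaling, covariate and mouse was varied.

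The receptors and lists were chosen with earlier results of these data known. Nothing in the labels gives array dates or batches, so these could not be examined. Replicates are separate mice. The number of arrays limits the precision.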

Additional observations from a re-analysis of the deposited data

Results flagged for a closer look

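In 4 of 60 groups of 5 mice tested over the lead probe sets, 1 mouse lay farther from the others than Dixon's critical value of 0.71 allows, and chance alone gives about 1 in 20 such groups. Ackr2 read 328 in NOD replicate 3 of 4 weeks, against 1246 to 1586 in the other NOD mice. Ccr7 read 264 in NOD replicate 3 of 2 weeks, against 379 to 424. Cxcr4 read 868 in NON replicate 5 of 2 weeks, against 1682 to 1736. S1pr1 read 449 in NON replicate 1 of 4 weeks, against 596 to 648, and this mouse also had a Gapdh 3'/5' ratio over 3.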

How the results depend on the processing

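No lead probe set that was called, with the reported settings or with an alternative, changed sign between them. Sign changes of differences called in neither were not counted. With 1 mouse left out, the receptor probe sets called numbered 0 to 4 for the strain difference at 4 weeks and 1 to 3 at 2 weeks, 0 to 1 for NOD against controls at 4 weeks and 1 to 3 at 2 weeks, 2 to 4 for age over strains, and 0 to 1 for age in NON. The strain difference at 4 weeks (3 called) gave 1 with quantile normalization, the replicate block or the Gapdh ratio as covariate, and 0 at an adjusted p under 0.005. At 2 weeks (1 called) it gave 3 with a pseudocount of 50, 2 with the stricter filter (100 in 10 mice) and 4 in one fit of all 30 mice. NOD against controls at 4 weeks (1 called) gave 2 with a pseudocount of 50 or the stricter filter, 3 in one fit of all 30 mice, and 0 without a filter, with the replicate block, with the Gapdh ratio or at 0.005. At 2 weeks (1 called) it gave 2 with a pseudocount of 50 or the stricter filter and 3 in one fit of all 30 mice. Age in NON (1 called) gave 2 with the stricter filter or the methods' unmoderated test and 0 in the 10 mice of the strain alone or at 0.005. The cause was not tested.

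Over all probe sets, one fit of all 30 mice called 960 for the strain difference at 4 weeks (578 as reported) and 993 at 2 weeks (635), and 570 for NOD against controls at 4 weeks (308), where the block called 201 and the Gapdh ratio 147. The replicate block called 367 for the strain difference at 4 weeks, quantile normalization 561 and the Gapdh ratio 407. A pseudocount of 50 called 833 for the strain difference at 2 weeks, and 418 and 225 for NOD against controls (4 and 2 weeks). The stricter filter, which tested fewer probe sets, called 743, 385 and 207 in that order. NOD against controls gave 263 at 4 weeks without a filter and 271 at 2 weeks in one fit (191 as reported). Age in NON gave 780 with the stricter filter and 757 with the unmoderated test (560 as reported). At 0.005, 181 and 202 were called for the strain difference, 92 and 81 for NOD against controls (4 and 2 weeks), 483 for age over strains, and 8, 55 and 44 for age in NOD, NON and C57. Each strain's 10 mice alone gave 6, 23 and 41 in NOD, NON and C57. The 75 pairs of mice that share a replicate number across groups had a median correlation of 0.037 (-0.149 to 0.187). For 300 other pairs the median was lower, at -0.009 (-0.194 to 0.187). A correlation over 0.1 was found in 8 of the 75 pairs and in 10 of the 300. The labels do not say whether a shared number links mice, and these values do not settle it. With the block, Ackr2 at 2 weeks stayed called (1.51, adjusted p = 0.0097) and the age difference of Cxcr5 missed (adjusted p = 0.051). Signals near the filter limit the dim probe sets of Ackr2, Ccr9 and Cx3cr1, and that of S1pr5 among the related receptors.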
